A study of Arabidopsis thaliana with 28 samples.

Results

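The 10 genes described here, from Arabidopsis thaliana, make or conjugate the auxin indole-3-acetic acid (IAA) and were followed through the first hours of light in dark-grown seedlings. They were taken by locus from the table of expression values, 10 of its 33557 loci, and are TAA1 (AT1G70560), YUC2 (AT4G13260), YUC3 (AT1G04610), YUC5 (AT5G43890), YUC8 (AT4G28720), YUC9 (AT1G04180), GH3.3 (AT2G23170), GH3.5 (AT4G27260), GH3.6 (AT5G54510) and GH3.17 (AT1G28130). All seedlings were Col-0 wild type, grown for 3 days in darkness. They were then collected either after 15 or 30 min or 1, 3, 6 or 12 h under blue, red and weak far-red LEDs that simulated white light (100 µmol per square metre per second), or directly from darkness. Roots were cut off, and hypocotyls were separated from cotyledons, which kept the shoot apical meristem. Each of the 14 groups (2 tissues by 7 times) had 2 libraries of polyadenylated RNA, A and B, labelled as biological replicates. The dark group was taken once, at the start, so that time in light, age and time of day cannot be told apart. Values are FPKM, fragments scaled to transcript length and library size, as the authors deposited them.

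IAA is made from tryptophan in a pair of steps. TAA1, a tryptophan aminotransferase, gives indole-3-pyruvate, and YUCCA (YUC) flavin monooxygenases turn that into IAA, a step generally held to set the rate. GH3 enzymes of the auxin group join IAA to amino acids, which stores it or marks it for breakdown, and several GH3 genes are themselves switched on by auxin. In seedlings these genes are best known from the shade response, where TAA1 and several YUC genes are needed for the hypocotyl to elongate and phytochrome-interacting factors (PIFs), which accumulate in darkness, bind YUC promoters.

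The promoters of YUC8, YUC2, GH3.3 and GH3.5 are shown because they hold short motifs linked to PIFs or to auxin response factors. The 4 genes were also not all alike in light, as YUC8, GH3.3 and GH3.5 fell in hypocotyls and YUC2 rose in cotyledons. Each promoter is the 250 bases before the annotated start, on the gene's strand, from the RefSeq copy of the TAIR10.1 assembly. Capitals mark matches on either strand to CATGTG (reverse complement CACATG), a PIF-bound form of the E-box, or to TGTCTC (reverse complement GAGACA), the classic auxin response element.
YUC8, chr4:14192319-14192568, plus strand: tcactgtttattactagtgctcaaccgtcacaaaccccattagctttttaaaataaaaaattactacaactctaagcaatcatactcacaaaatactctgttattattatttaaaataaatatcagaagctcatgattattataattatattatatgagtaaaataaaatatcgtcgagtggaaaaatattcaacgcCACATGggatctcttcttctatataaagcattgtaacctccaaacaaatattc
YUC2, chr4:7724071-7724320, minus strand: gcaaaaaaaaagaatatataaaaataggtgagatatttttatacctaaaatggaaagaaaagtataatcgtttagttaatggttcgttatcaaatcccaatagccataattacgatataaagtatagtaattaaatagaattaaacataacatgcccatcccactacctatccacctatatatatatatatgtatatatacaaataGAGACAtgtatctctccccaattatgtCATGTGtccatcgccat
GH3.3, chr2:9866563-9866812, minus strand: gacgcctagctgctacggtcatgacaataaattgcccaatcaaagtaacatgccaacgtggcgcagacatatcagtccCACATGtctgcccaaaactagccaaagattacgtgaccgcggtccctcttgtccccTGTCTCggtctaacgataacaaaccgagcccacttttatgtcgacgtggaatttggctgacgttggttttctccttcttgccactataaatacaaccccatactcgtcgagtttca
GH3.5, chr4:13653329-13653578, plus strand: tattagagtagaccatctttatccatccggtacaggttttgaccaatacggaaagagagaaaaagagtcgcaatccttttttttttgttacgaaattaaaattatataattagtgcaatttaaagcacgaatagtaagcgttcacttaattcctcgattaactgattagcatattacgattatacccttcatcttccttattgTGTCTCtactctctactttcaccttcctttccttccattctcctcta

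YUC8 held CACATG 53 to 48 bases before its start. YUC2 held GAGACA 44 to 39 bases and CATGTG 17 to 12 bases before its start, GH3.3 held CACATG at 172 to 167 and TGTCTC at 116 to 111, and GH3.5 held TGTCTC at 47 to 42. YUC9 (not printed) held CACATG at 65 to 60, and the windows of TAA1, YUC3, YUC5, GH3.6 and GH3.17 held neither motif. Of 27443 promoters of the same length, 11.1% held CATGTG or CACATG and 10.9% held TGTCTC on either strand. The G-box CACGTG, in 6.49% of promoters, and the auxin element TGTCGG, in 4.16%, were searched on both strands as well and had no match in the 10. Motifs were counted wherever they lay, also where 2 overlapped, and a match is a description of letters and not a site of binding.

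All 10 members were protein-coding, shared no stretch of 50 bases with another locus and overlapped no other annotated gene. On the same assembly TAA1 (5 exons) lies at chr1:26604855-26607652, YUC3 (3 exons) at chr1:1279351-1281618, YUC5 (1 exon) at chr5:17648576-17650375 and YUC9 (2 exons) at chr1:1104493-1106241. GH3.6 and GH3.17 (3 exons each) lie at chr5:22130964-22133688 and chr1:9825169-9828118, YUC8 has 1 exon, and YUC2, GH3.3 and GH3.5 have 3. All but YUC9 passed the filter on low values, a mean over the 28 libraries of 1 FPKM or more, which left 9. Changes were tested with limma on log2(FPKM + 1) over all 18678 genes that passed, with 14 residual degrees of freedom. A change was called where its Benjamini-Hochberg adjusted p was below 0.05 and its size was 1 or more on that scale, which understates the fold of genes near 1 FPKM.

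In light, 3 synthesis genes (TAA1, YUC3 and YUC8) and 2 conjugation genes (GH3.3 and GH3.5) fell in hypocotyls and stayed low, while in cotyledons some members rose and others fell. In hypocotyls the calls were all decreases, 22 over the 6 times, and reached 6 of the 9 genes tested. Beside those 5, GH3.6 fell at 1 h and stood above darkness from 3 h on, under the limit for a call, and YUC2, YUC5 and GH3.17 were not called in hypocotyls at any time. In cotyledons 12 calls were increases (YUC2, YUC5, GH3.6 and GH3.17) and 11 were decreases (YUC3, YUC8 and GH3.5). With every library at an equal sum over nuclear genes, cotyledons had 9 increases and 15 decreases, and hypocotyls still had 22 decreases. In whole organs, fewer cells that express a gene and less RNA per cell cannot be told apart.

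Against darkness, hypocotyls had 0 of 9 members higher at every time, where 0.380% of all genes tested were higher at 15 min, 1.76% at 30 min, 4.89% at 1 h, 12.4% at 3 h, 14.2% at 6 h and 16.6% at 12 h. Members lower in hypocotyls numbered 1 at 15 min (0.616% of all genes), 2 at 30 min (1.84%), 4 at 1 h (3.37%) and 5 at each later time (8.82% of all genes at 3 h, 11.9% at 6 h, 14.2% at 12 h). The median of the 9 members was -0.90 at 1 h, -2.51 at 6 h and -2.07 at 12 h, against 0.00, 0.012 and 0.016 over all genes tested.

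In cotyledons, members higher than in darkness numbered 0 at 15 min (0.300% of all genes) and at 30 min (1.70%), 2 at 1 h (6.56%), 3 at 3 h (13.1%), 3 at 6 h (16.9%) and 4 at 12 h (15.1%). Members lower numbered 1 at 15 min (0.546%), 1 at 30 min (1.67%), 1 at 1 h (4.76%), 2 at 3 h (10.9%), 3 at 6 h (11%) and 3 at 12 h (8.25%). The median of the 9 was -0.285 at 1 h, -0.27 at 6 h and -0.925 at 12 h, against 0.001, 0.033 and 0.037 over all genes tested.

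**Figure D1:**
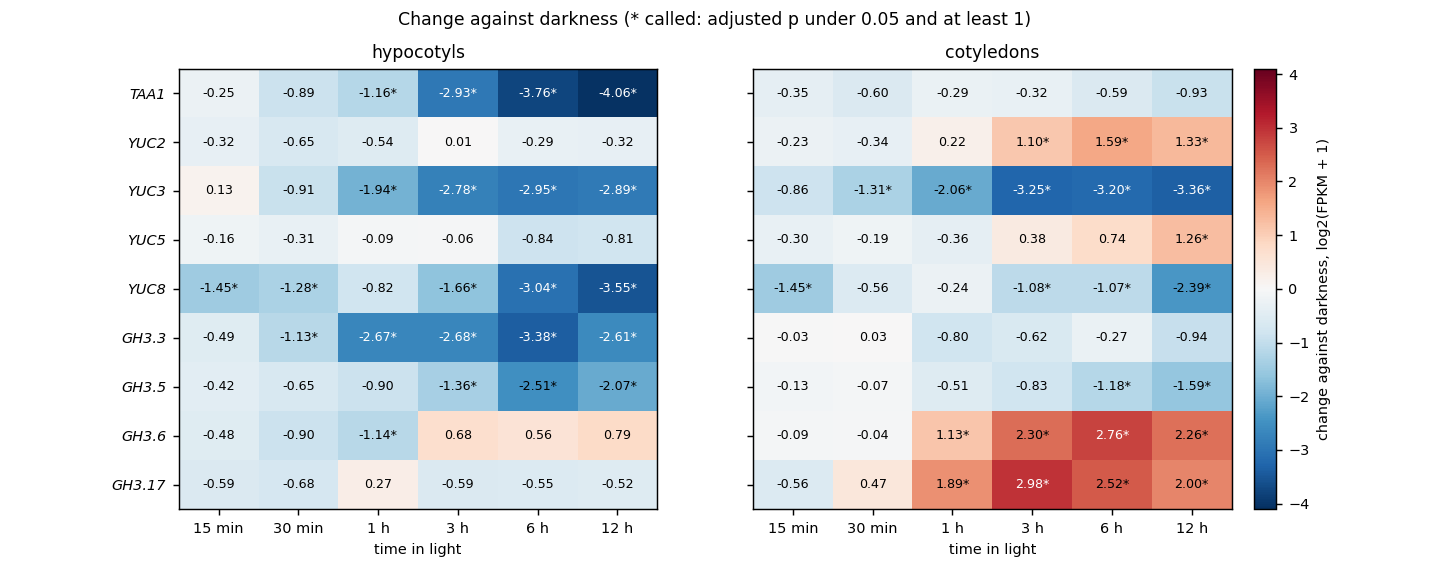
Change of the 9 tested members against darkness, as log2(FPKM + 1), with hypocotyls in the left panel, cotyledons in the right panel and time in light along the horizontal axis. Blue is lower and red is higher in light, and an asterisk marks a called change. TAA1 at 12 h in hypocotyls, at -4.06, and GH3.17 at 3 h in cotyledons, at 2.98, are the extremes.

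TAA1 fell in hypocotyls in steps until little was left. Hypocotyls had 36.6 and 36.1 FPKM in darkness, 27.9 and 33.4 after 15 min, 19.9 and 18.3 after 30 min, 15.3 and 16.2 after 1 h, 3.91 and 3.89 after 3 h, 1.54 and 1.99 after 6 h and 0.713 and 1.92 after 12 h. Cotyledons had 26.3 and 18.8 FPKM in darkness, 19.5 and 15.2 after 15 min, 16.4 and 12.6 after 30 min, 18.8 and 17.4 after 1 h, 18.1 and 17.3 after 3 h, 14.3 and 14.7 after 6 h and 9.27 and 13.6 after 12 h. Hypocotyl libraries from 15 min on lay below both dark hypocotyl libraries, and those of 3 h, 6 h and 12 h lay below every cotyledon library. The 12 h mean in hypocotyls was 27.6-fold below darkness (51.05-fold without replicate B of 12 h), a change of -4.06 (SE 0.207, limma adjusted p = 7.14e-13). The decrease was first called at 1 h, at -1.16 (adjusted p = 0.000198), and continued between 1 h and 3 h, where 3 h stood at -1.77 against 1 h (adjusted p = 7.82e-07). In cotyledons TAA1 was never called, and its largest change was -0.93 at 12 h (adjusted p = 0.000659). That value passed -1 without replicate B of the dark cotyledons (-1.16), without replicate B of the 12 h cotyledons (-1.18), after quantile normalization (-1.01) and with every library at an equal sum over nuclear genes (-1.46), where 6 h passed as well (-1.12). In the authors' deposited table it was -1.07 at 12 h (q = 0.000288). Levels in hypocotyls stood above those in cotyledons in darkness (0.68, not called) and below them at 12 h (-2.45, adjusted p = 1.97e-09).

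YUC8, one of the YUC genes bound by PIFs, was the first of the members to pass both limits for a call. Its hypocotyl libraries had 23.4 and 19.7 FPKM in darkness, 7.26 and 7.13 after 15 min, 8.38 and 8.07 after 30 min, 12.7 and 10.9 after 1 h, 5.49 and 6.73 after 3 h, 1.79 and 1.66 after 6 h and 1.42 and 0.520 after 12 h. Its cotyledon libraries had 12.7 and 10.8 FPKM in darkness, 3.87 and 3.48 after 15 min, 6.69 and 8.73 after 30 min, 11.4 and 8.40 after 1 h, 4.75 and 5.32 after 3 h, 5.42 and 4.73 after 6 h and 1.48 and 1.37 after 12 h. Both tissues showed a drop within 15 min and higher levels again at 1 h, where the cotyledon libraries overlapped those of darkness. At 30 min YUC8 was still called in hypocotyls (-1.28, limma adjusted p = 2.64e-05) and was not called in cotyledons (-0.56). After 15 min YUC8 stood at -1.45 in hypocotyls (SE 0.181, limma adjusted p = 2.09e-05) and at -1.45 in cotyledons (adjusted p = 2.93e-05), and it was the single member called at that time in either tissue. Other members had an adjusted p below 0.05 at 15 min but stayed under the size limit. These were YUC3 in cotyledons (-0.86) and GH3.17 in cotyledons (-0.56) and hypocotyls (-0.59). At 1 h YUC8 was not called in hypocotyls (-0.82) or in cotyledons (-0.24), and all 4 of its libraries of 1 h lay above the 4 of 15 min within their tissue. The rise between 15 min and 1 h was noticed in the values and is given with no test.

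From 3 h on YUC8 fell again, and further in hypocotyls. It stood at -3.04 at 6 h and -3.55 at 12 h in hypocotyls, where the 12 h mean was 22.2-fold below darkness (41.4-fold without replicate A of 12 h). In cotyledons it stood at -1.07 at 6 h and -2.39 at 12 h, the last a further decrease against 6 h (-1.32, adjusted p = 2.85e-05). The cotyledon calls at 3 h (-1.08) and 6 h were at the edge. Without replicate A of the dark cotyledons they came to -0.97 and -0.97, and without replicate B of the 6 h cotyledons the second came to -0.99.

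YUC3 fell to a few fragments in both tissues. Hypocotyl levels of YUC3 were 7.52 and 6.05 FPKM in darkness, 6.75 and 8.32 after 15 min, 3.55 and 2.72 after 30 min, 1.09 and 0.949 after 1 h, 0.0853 and 0.180 after 3 h, 0 and 0 after 6 h and 0.0309 and 0.0624 after 12 h. Cotyledon levels were 10.4 and 8.80 FPKM in darkness, 4.57 and 5.10 after 15 min, 4.26 and 2.44 after 30 min, 1.96 and 1.18 after 1 h, 0.160 and 0.0573 after 3 h, 0.128 and 0.174 after 6 h and 0.0569 and 0 after 12 h. Fragment counts could be read from the steps between its low values: the 9 values of up to 8 fragments all lay within 0.1 of a whole number, with 1 fragment worth 0.0435 FPKM at median depth. By that measure the hypocotyl libraries held 3 and 6 fragments after 3 h, 0 and 0 after 6 h, and 1 and 1 after 12 h. The cotyledon libraries held 5 and 1 fragments after 3 h, 3 and 4 after 6 h, and 1 and 0 after 12 h. No fold is given for these times, since it would rest on so few fragments. On the log2(FPKM + 1) scale, YUC3 stood at -2.78 at 3 h in hypocotyls (adjusted p = 4.72e-11) and at -3.25 in cotyledons (adjusted p = 5.06e-12).

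The decrease of YUC3 was called from 1 h in hypocotyls (-1.94) and from 30 min in cotyledons (-1.31). Its 15 min value in cotyledons was -0.86 (limma adjusted p = 0.00822), under the size limit. Its 30 min value in hypocotyls was -0.91, and it passed the limits without replicate B of the dark hypocotyls (-1.05), without replicate A of the 30 min hypocotyls (-1.06) and in the authors' deposited table (-1.10, q = 0.000968). On the deposited scale no difference between the tissues was called for YUC3 at any time, which holds for no other tested member. At 15 min it stood 0.99 higher in hypocotyls than in cotyledons relative to darkness (limma adjusted p = 0.0978), and at an equal sum over nuclear genes this difference was 1.16 and called (limma adjusted p = 0.0456). In the authors' deposited table the decrease at 12 h did not pass in hypocotyls (q = 0.185) or in cotyledons (q = 0.366), although its listed log2 folds were -7.20 and -8.46.

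YUC2 and YUC5 were the YUC genes that rose in cotyledons. YUC2 had in hypocotyls 1.81 and 1.69 FPKM in darkness, 1.32 and 1.08 after 15 min, 0.490 and 1.07 after 30 min, 0.844 and 0.935 after 1 h, 1.62 and 1.94 after 3 h, 1.23 and 1.26 after 6 h and 1.36 and 1.05 after 12 h. In cotyledons it had 0.585 and 0.716 FPKM in darkness, 0.399 and 0.413 after 15 min, 0.310 and 0.301 after 30 min, 0.981 and 0.856 after 1 h, 2.25 and 2.84 after 3 h, 3.75 and 4.16 after 6 h and 3.03 and 3.25 after 12 h. Cotyledon libraries of 3 h and later lay above all 14 hypocotyl libraries, whereas in darkness those of hypocotyls were the higher ones. YUC2 rose 6.08-fold by 6 h in cotyledons (1.59, SE 0.146, limma adjusted p = 8.03e-09) and was called from 3 h to 12 h, while in hypocotyls its change was at most -0.65, at 30 min, and not called (-1.15 and called with a pseudocount of 0.1 FPKM). The 3 h call in cotyledons (1.10) and the difference between tissues at that time (-1.09) came to 0.98 and -0.97 without replicate B of the 3 h cotyledons.

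YUC5 had in hypocotyls 1.47 and 2.13 FPKM in darkness, 1.33 and 1.65 after 15 min, 0.917 and 1.64 after 30 min, 1.60 and 1.61 after 1 h, 1.67 and 1.68 after 3 h, 0.451 and 0.657 after 6 h and 0.751 and 0.446 after 12 h. In cotyledons it had 0.597 and 0.274 FPKM in darkness, 0.174 and 0.140 after 15 min, 0.237 and 0.263 after 30 min, 0.10 and 0.127 after 1 h, 0.735 and 0.984 after 3 h, 1.16 and 1.62 after 6 h and 3.34 and 1.70 after 12 h. Cotyledon libraries held few fragments up to 1 h, 8 and 3 in darkness, 2 and 2 after 15 min, 3 and 4 after 30 min and 1 and 3 after 1 h. The change at 1 h was -0.36 and not called, although it was called with a pseudocount of 0.1 FPKM (-1.26). Both 12 h libraries lay above all other cotyledon libraries. The 12 h cotyledon mean was 5.78-fold above darkness (1.26, adjusted p = 1.8e-05), a ratio over the 8 and 3 fragments of darkness that came to 9.19 without replicate A of the dark cotyledons. The 12 h pair was uneven, and the change was no longer called without replicate A of the 12 h cotyledons (0.92) or after quantile normalization (0.97). At 6 h it was 0.74 and not called, but 1.53 and called with a pseudocount of 0.1 FPKM. In hypocotyls the 6 h and 12 h libraries lay below all earlier ones, at -0.84 and -0.81, without a call. With a pseudocount of 0.1 FPKM these came to -1.54 and -1.46 and were called, as were -1.16 and -1.15 after quantile normalization, and the 6 h value without replicate A of the dark hypocotyls (-1.01).

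YUC9 stayed near the limit of detection. In hypocotyls its libraries ran between 0.0891 and 0.595 FPKM, which is 1 to 10 fragments. In cotyledons they ran between 0 and 0.226 FPKM, 0 to 3 fragments, with 7 of 14 libraries at 0. Hypocotyl and cotyledon libraries overlapped in darkness, and in FPKM the hypocotyl libraries were the higher ones at every time in light. At 15 min hypocotyls had 7 and 10 fragments and cotyledons 0 and 0. At 12 h the hypocotyl libraries had 2 and 1 fragments, against 1 and 1 in cotyledons and 2 and 7 in dark hypocotyls. No change of YUC9 with light was tested.

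**Figure D2:**
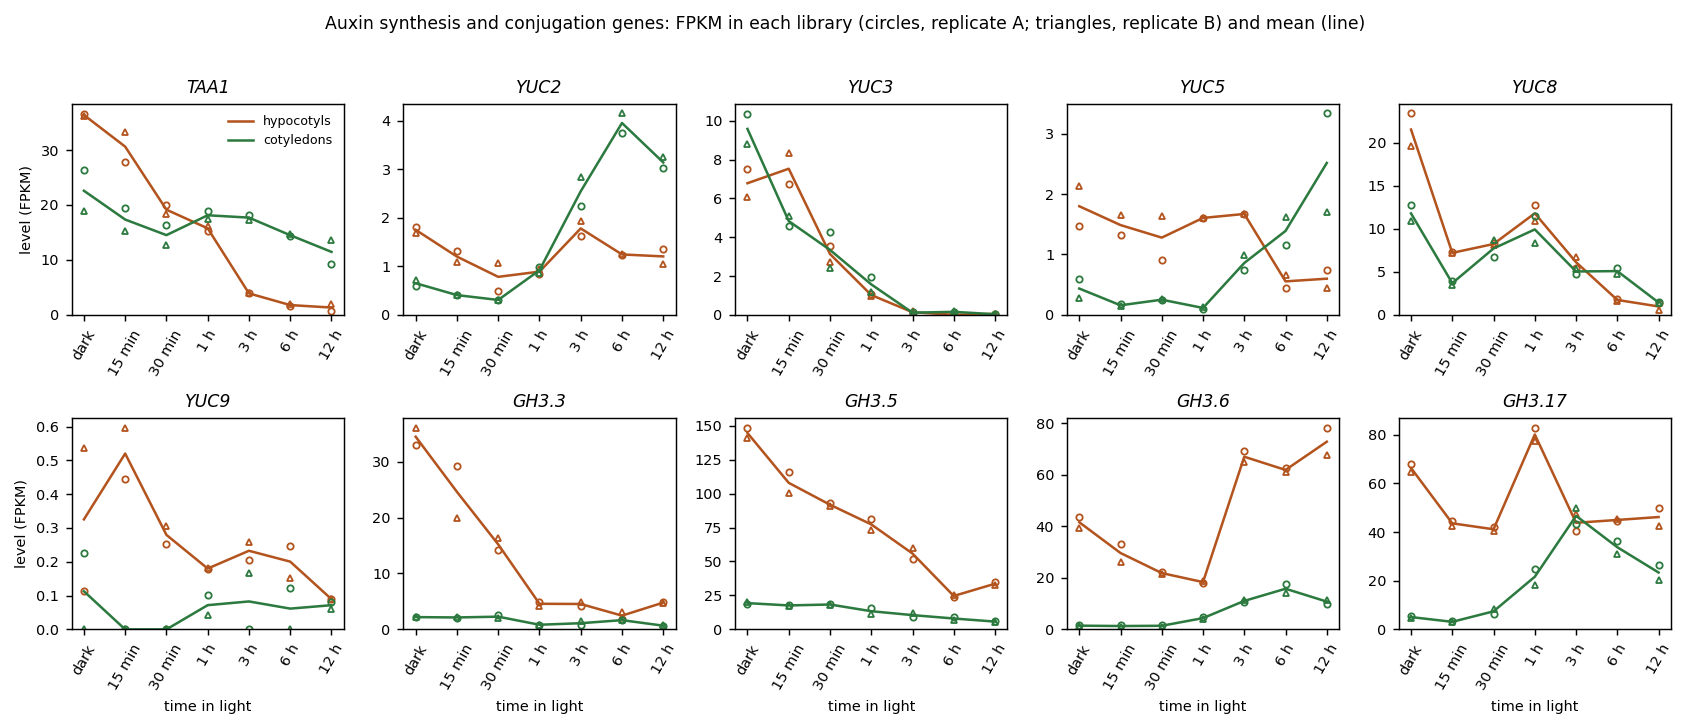
Level of each of the 10 genes in FPKM (vertical axis, linear and from 0, scaled per gene) by time in light (horizontal axis, steps not to scale). Lines join the means of 2 libraries, with circles for replicate A and triangles for replicate B, hypocotyls in brown and cotyledons in green. YUC8 dips at 15 min in both tissues, and GH3.17 reaches its peak at 1 h in hypocotyls and at 3 h in cotyledons.

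Summed over the 5 YUC members, hypocotyls had 34.3 and 30.1 FPKM in darkness, 17.1 and 18.8 after 15 min, 16.4 and 14.5 after 1 h, 3.72 and 3.72 after 6 h and 3.64 and 2.17 after 12 h. Cotyledons had 24.5 and 20.6 in darkness, 9.02 and 9.14 after 15 min, 14.6 and 10.6 after 1 h, 10.6 and 10.7 after 6 h and 7.997 and 6.37 after 12 h. The make-up of the sum shifted as its size did. YUC8 was 66.9% of it in dark hypocotyls and 52.2% in dark cotyledons, and at 12 h YUC2 was the largest share of the mean sum in both, 41.4% in hypocotyls and 43.7% in cotyledons. That order held in replicate B alone, since in replicate A of 12 h YUC8 exceeded YUC2 in hypocotyls (1.42 and 1.36 FPKM) and YUC5 exceeded it in cotyledons (3.34 and 3.03 FPKM). YUC6, a further YUC gene outside the 10, was not called against darkness in either tissue and had 5.27 and 6.12 FPKM at 12 h in hypocotyls, against 6.24 and 7.61 FPKM in darkness. At 12 h it was 65.5% of the sum over all 11 YUC genes in hypocotyls.

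In darkness the 4 GH3 members were far higher in hypocotyls. Hypocotyls had 4 of 9 members higher than cotyledons in darkness (23.4% of all genes tested) and 0 lower (21.2%). All 4 were GH3 genes, at 3.47 for GH3.3, 2.84 for GH3.5, 4.11 for GH3.6 (28.5-fold) and 3.48 for GH3.17. No synthesis gene was called, although with a pseudocount of 0.1 FPKM YUC2 (1.31) and YUC5 (1.87) were, and YUC5 was without replicate A of the dark cotyledons or of the dark hypocotyls (1.13 each). At 12 h hypocotyls had 3 members higher than cotyledons (16.8% of all genes), GH3.3, GH3.5 and GH3.6, and 2 lower (18.4%), TAA1 and YUC5. For YUC5, and without a call for YUC2, the order of the tissues was the other way round than in darkness, as for TAA1. YUC2 at 12 h, at -0.91, passed with a pseudocount of 0.1 FPKM (-1.32), after quantile normalization (-1.03) and without replicate A of the 12 h hypocotyls (-1.01). Libraries of YUC8 overlapped between the tissues at 12 h. YUC5, at -1.10, came to -0.76 without replicate A of the 12 h cotyledons and to -0.97 without replicate B of the 12 h hypocotyls.

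GH3.5, listed in RefSeq as WES1, had the highest level of the members, in dark hypocotyls, and its enzyme also acts on salicylic acid. Hypocotyls had 148 and 141 FPKM in darkness, 116 and 100 after 15 min, 92.8 and 90.8 after 30 min, 81.6 and 73.0 after 1 h, 52.0 and 59.7 after 3 h, 24.1 and 25.1 after 6 h and 34.8 and 32.5 after 12 h. Cotyledons had 18.7 and 19.97 FPKM in darkness, 17.9 and 17.4 after 15 min, 18.3 and 18.3 after 30 min, 15.4 and 11.4 after 1 h, 9.01 and 12.0 after 3 h, 8.99 and 7.07 after 6 h and 6.20 and 5.31 after 12 h. Every hypocotyl library lay above every cotyledon library. At 6 h GH3.5 was 5.87-fold below darkness in hypocotyls (-2.51, SE 0.137, limma adjusted p = 1.88e-12) and 2.41-fold below in cotyledons (-1.18, adjusted p = 2.37e-07). It was 3.37-fold below darkness in cotyledons at 12 h (-1.59), where the difference between the tissues was not called (-0.48, adjusted p = 0.0401). At 3 h in cotyledons it stood at -0.83, and at -1.02 and called without replicate B of the 3 h cotyledons.

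GH3.3, a rapid auxin-response gene, lost most of its hypocotyl level within 1 h. Its hypocotyl libraries had 32.9 and 35.99 FPKM in darkness, 29.2 and 19.997 after 15 min, 14.1 and 16.3 after 30 min, 4.99 and 4.18 after 1 h, 4.22 and 4.88 after 3 h, 1.79 and 3.14 after 6 h and 4.84 and 4.74 after 12 h. Its cotyledon libraries had 2.25 and 2.15 FPKM in darkness, 2.00 and 2.28 after 15 min, 2.57 and 1.99 after 30 min, 0.840 and 0.827 after 1 h, 0.796 and 1.42 after 3 h, 1.67 and 1.64 after 6 h and 0.593 and 0.746 after 12 h. Hypocotyl libraries of 1 h and later lay below all those of 30 min and earlier. GH3.3 stood at -2.67 at 1 h in hypocotyls (SE 0.184, adjusted p = 3.66e-10), 7.52-fold below darkness, and at -3.38 at 6 h, 13.98-fold below. In cotyledons, where it was low from the start, it was not called at any time and reached -0.94 at 12 h. With a pseudocount of 0.1 FPKM its cotyledon change was called at 1 h (-1.30) and at 12 h (-1.59), and the 12 h change was called without replicate B of the 12 h cotyledons (-1.01). In the authors' deposited table it passed both limits in cotyledons at 1 h (-1.40), 3 h (-1.02) and 12 h (-1.80).

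GH3.6, listed in RefSeq as DFL1 after a line that stays short in light, went down and then up in hypocotyls. Hypocotyl levels of GH3.6 were 43.7 and 39.5 FPKM in darkness, 33.1 and 26.1 after 15 min, 22.3 and 21.4 after 30 min, 18.1 and 18.6 after 1 h, 69.1 and 64.8 after 3 h, 62.5 and 61.1 after 6 h and 78.02 and 67.5 after 12 h. Cotyledon levels were 1.58 and 1.34 FPKM in darkness, 1.56 and 1.07 after 15 min, 1.71 and 1.11 after 30 min, 4.71 and 4.05 after 1 h, 10.8 and 11.3 after 3 h, 17.6 and 13.9 after 6 h and 9.97 and 11.6 after 12 h. Both hypocotyl libraries of 1 h were lower than in darkness, and those of 3 h, 6 h and 12 h were all higher than in darkness. The decrease at 1 h was called (-1.14, SE 0.143, limma adjusted p = 2.56e-06), and the step up between 1 h and 3 h was called as well (1.81, adjusted p = 2.84e-09). Against darkness the later levels were 0.68 at 3 h, 0.56 at 6 h and 0.79 at 12 h, under the limit of 1. In cotyledons GH3.6 rose 10.8-fold by 6 h (2.76, adjusted p = 1.59e-12), with a call from 1 h on.

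GH3.17, whose enzyme prefers glutamate, rose early in cotyledons. Hypocotyls had 67.8 and 64.8 FPKM in darkness, 44.5 and 42.6 after 15 min, 41.9 and 40.3 after 30 min, 82.7 and 77.4 after 1 h, 40.4 and 47.2 after 3 h, 44.7 and 45.2 after 6 h and 49.7 and 42.6 after 12 h. Cotyledons had 5.56 and 4.57 FPKM in darkness, 3.31 and 2.92 after 15 min, 6.36 and 8.49 after 30 min, 24.8 and 18.4 after 1 h, 43.5 and 49.8 after 3 h, 36.4 and 31.2 after 6 h and 26.6 and 20.2 after 12 h. It peaked at 1 h in hypocotyls, 2 libraries above all 12 others there, and at 3 h in cotyledons. In cotyledons GH3.17 stood at 1.89 at 1 h (SE 0.150, adjusted p = 2.51e-09) and at 2.98 at 3 h, 9.21-fold above darkness (adjusted p = 1.06e-12). In hypocotyls no change against darkness was called, although both libraries of 15 min, 30 min, 3 h, 6 h and 12 h lay below both dark ones. These changes ran from -0.52 at 12 h to -0.68 at 30 min, each with a limma adjusted p below 0.05 and under the size limit. The tissues differed less at the end: hypocotyls were 13.1-fold above cotyledons in darkness, and 1.98-fold above them at 12 h (0.96, not called). That value passed without replicate A of the 12 h cotyledons (1.15) and without replicate B of the 12 h hypocotyls (1.07).

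**Figure D3:**
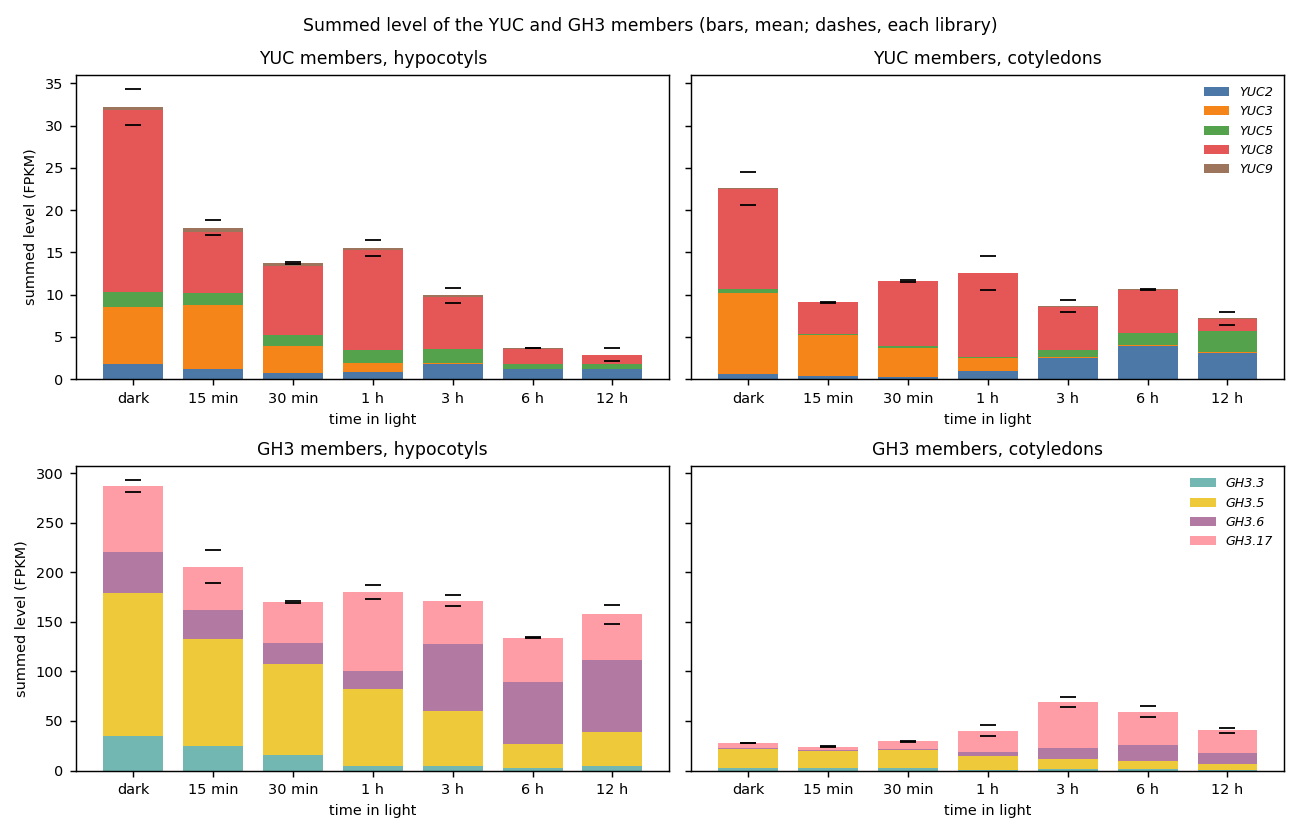
Summed FPKM of the 5 YUC members (upper panels) and the 4 GH3 members (lower panels) by time in light, hypocotyls left and cotyledons right, on axes shared within a row. Coloured segments are group means of single genes and the dashes are the sums of each library. The hypocotyl YUC bars shrink to 3.72 FPKM in both libraries at 6 h, and the GH3.6 segment widens in hypocotyls from 3 h on.

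Summed over the 4 GH3 members, hypocotyls had 293 and 281 FPKM in darkness, 171 and 169 after 30 min, 133 and 135 after 6 h and 167 and 147 after 12 h. Cotyledons had 28.1 and 28.03 in darkness, 29.0 and 29.9 after 30 min, 64.0 and 74.6 after 3 h and 43.4 and 37.8 after 12 h. GH3.5 was the largest share of the hypocotyl sum up to 30 min, 50.4% in darkness, and GH3.6 was the largest share from 3 h on, 46.2% at 12 h. GH3.17 was the largest share in cotyledons from 1 h on, 67.3% at 3 h.

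The difference in light change between the tissues, hypocotyls minus cotyledons, was tested directly. Members with a lower value in hypocotyls numbered 0 at 15 min (0.273% of all genes tested), 2 at 30 min (1.26%), 3 at 1 h (5.04%), 5 at 3 h (13.5%), 8 at 6 h (19.1%) and 7 at 12 h (17.3%). No member had a higher value in hypocotyls, 0 of 9 at each time, where 0.230%, 1.15%, 4.86%, 15.5%, 17.8% and 16.5% of all genes did at 15 min, 30 min, 1 h, 3 h, 6 h and 12 h. At 6 h all tested members but YUC3 differed, from -3.17 for TAA1 (SE 0.292, limma adjusted p = 1.36e-08), -3.11 for GH3.3 and -3.07 for GH3.17 to -1.33 for GH3.5. The median of the 9 was -1.97 at 6 h, against -0.001 over all genes tested.

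**Figure D4:**
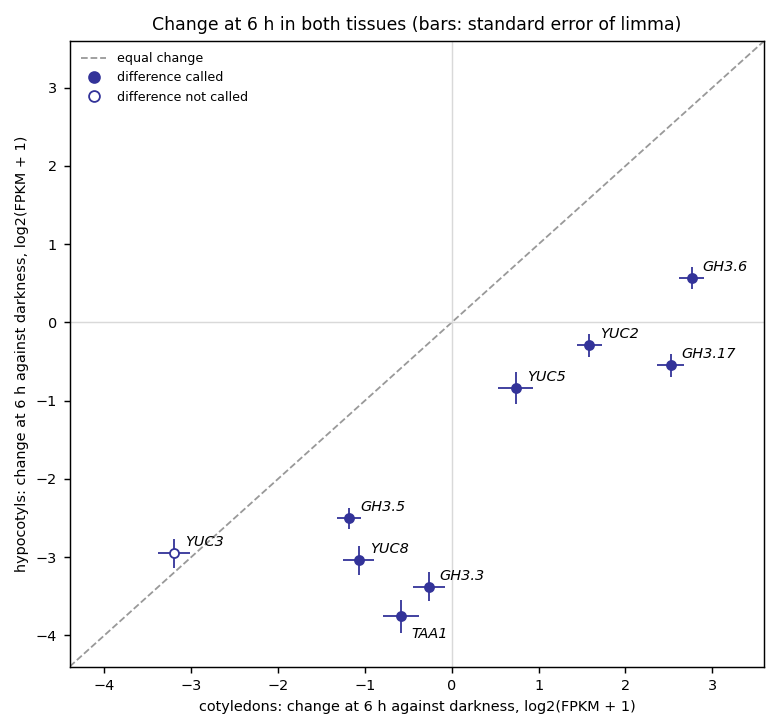
Change at 6 h against darkness in hypocotyls (vertical axis) and cotyledons (horizontal axis) of the 9 tested members, on the log2(FPKM + 1) scale with limma standard errors. Filled points are members whose difference between the tissues was called, and the dashed line marks equal change. YUC3 lies close to the line, and the other 8 lie below it.

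On the deposited scale the earliest called differences were those of GH3 genes. At 30 min GH3.3 (-1.16, adjusted p = 0.00913) and GH3.17 (-1.14, adjusted p = 0.0018) differed, and at 1 h GH3.6 followed (-2.27, adjusted p = 6.79e-08). TAA1 and YUC2 differed from 3 h and YUC5 and YUC8 from 6 h. Under other settings some came earlier: YUC3 at 15 min at an equal sum over nuclear genes (1.16), GH3.6 at 30 min without replicate B of the 30 min cotyledons (-1.04), TAA1 at 1 h without replicate A of the dark cotyledons (-1.11) and YUC2 at 1 h with a pseudocount of 0.1 FPKM (-1.35). The 30 min calls rested on single libraries. GH3.3 came to -1.03 without replicate A of the 30 min cotyledons (adjusted p = 0.0566), to -1.07 without replicate A of the 30 min hypocotyls (adjusted p = 0.0508) and to -1.22 with a pseudocount of 0.1 FPKM (adjusted p = 0.0665). GH3.17 came to -0.96 without replicate B of the 30 min cotyledons. YUC8 at 12 h (-1.16) came to -0.82 without replicate B of the 12 h hypocotyls.

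The difference between tissues moved with the scaling of libraries. The deposited FPKM summed to between 1037890 and 1135390 in cotyledons of 3 h to 12 h, against 774142 and 809446 in dark cotyledons. With every library rescaled to an equal sum over nuclear genes, the median of all genes in the difference between tissues moved to 0.44 at 3 h, 0.59 at 6 h and 0.53 at 12 h. The split of all genes then was 4806 higher and 1576 lower after 3 h, 6324 and 1930 after 6 h, and 5836 and 1842 after 12 h, where the deposited scale gave 2899 and 2520, 3331 and 3560, and 3074 and 3238. At 15 min it was 79 and 38, where the deposited scale gave 43 and 51, and after 1 h it was 1241 and 761, where it gave 907 and 942. On that scale 4 of the 25 calls ended: YUC2 at 3 h (-0.83), GH3.5 at 6 h (-0.67), YUC8 at 12 h (-0.69) and GH3.6 at 12 h (-0.91). Relative to the shifted medians these were -1.27, -1.26, -1.22 and -1.44. The difference of YUC3 at 15 min (1.16) was added, which left 22 calls, and it is the single positive one among them.

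For cotyledons against darkness the same rescaling moved the median of all genes to -0.29 after 3 h, -0.40 after 6 h and -0.41 after 12 h. All genes split into 1527 higher and 3503 lower after 3 h, 1607 and 4355 after 6 h and 1498 and 3782 after 12 h, where the deposited scale gave 2440 and 2045, 3163 and 2060, and 2818 and 1541. The increases of YUC2 then came to 0.87 at 3 h and 0.98 at 12 h and that of YUC5 to 0.96 at 12 h, under the limit. Decreases were called in addition for GH3.5 at 3 h (-1.22), TAA1 at 6 h (-1.12) and 12 h (-1.46) and GH3.3 at 12 h (-1.22). The increases of GH3.6 and GH3.17 stayed called at each time they had been. For hypocotyls against cotyledons at 12 h the split was 4751 higher and 2207 lower, where the deposited scale gave 3139 and 3438. On the rescaled values YUC5 came to -0.83 and GH3.17, not called before, to 1.38.

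Of the later steps, 3 h against 1 h in hypocotyls held 2 members (11.5% of all genes in either direction), GH3.6 higher and TAA1 lower, and 12 h against 6 h held 0 (3.29%). In cotyledons 3 h against 1 h held 3 members (10.3%), GH3.6 and GH3.17 higher and YUC3 lower. Its split over all genes was 1021 higher and 894 lower on the deposited scale and 603 and 1609 after the rescaling, where GH3.6 came to 0.91 and GH3.17 to 0.80. YUC3, at -1.20, came to -0.98 without replicate A of the 1 h cotyledons, and GH3.17, at 1.09, to 0.88 without replicate B of the 1 h and to 0.99 without replicate B of the 3 h cotyledons and to 0.98 after quantile normalization. From 6 h to 12 h in cotyledons 1 member was called (3.62%), YUC8, which fell. Further steps passed under other settings. For 3 h against 1 h in cotyledons these were YUC2 (1.37) and YUC5 (2.16) with a pseudocount of 0.1 FPKM, YUC2 without replicate A of 3 h (1.00), and YUC8 at an equal sum over nuclear genes (-1.09) and without replicate B of 1 h (-1.05). With the same pseudocount YUC3 passed in hypocotyls for 3 h against 1 h (-2.29) and GH3.3 in cotyledons for 12 h against 6 h (-1.20), and GH3.3 passed in hypocotyls for 12 h against 6 h without replicate B of 6 h (1.06).

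Ranked by mean, the 14 groups of a gene form 13 neighbouring pairs, and libraries of neighbours were apart in 5 pairs for TAA1, 7 for YUC2, 6 for YUC3, 4 for YUC5, 7 for YUC8, 0 for YUC9, 7 for GH3.3, 12 for GH3.5, 9 for GH3.6 and 8 for GH3.17. Dark hypocotyls ranked highest for TAA1, YUC8, GH3.3 and GH3.5. Hypocotyls of 12 h ranked highest for GH3.6, with libraries that overlapped those of the 3 h hypocotyls. Cotyledons of 6 h ranked highest for YUC2, apart from the 12 h cotyledons after them, and cotyledons of 12 h ranked highest for YUC5, whose libraries overlapped those of dark hypocotyls. YUC3 was highest in dark cotyledons, and GH3.17 in hypocotyls of 1 h, each apart from the next group.

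Among themselves, some pairs of members ran together in both tissues. Over the 7 hypocotyl group means TAA1 ran with GH3.5 (Pearson r 0.96 on the log2 scale), YUC3 (0.94) and YUC8 (0.89), and over the 7 cotyledon means the same 3 were closest to it, at 0.72, 0.66 and 0.79. YUC3 and GH3.5 stood at 0.903 in hypocotyls and 0.908 in cotyledons. Other pairs had opposite signs, among them YUC5 with YUC8 (0.91 in hypocotyls, -0.72 in cotyledons) and GH3.6 with GH3.17 (-0.42 in hypocotyls, 0.93 in cotyledons). YUC2 ran with GH3.6 at 0.68 in hypocotyls and 0.98 in cotyledons. These correlations describe group means that share one series of times and carry no test.

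Other genes of the pathway were read from 10 lists with 59 genes, 47 of which passed the filter. Next to TAA1, its relative TAR2 (AT4G24670) rose in cotyledons, with 30.7 and 24.3 FPKM at 3 h and 4.51 and 5.21 FPKM in darkness (2.28, limma adjusted p = 1.88e-11). VAS1 (AT1G80360), which turns indole-3-pyruvate back into tryptophan, was not called against darkness in either tissue, and TAR1 was listed at 0 in all 28 libraries. Of the 7 genes of tryptophan synthesis 1 rose in cotyledons at 6 h (16.9% of all genes tested), TSA1 (AT3G54640, 1.14), and again at 12 h (1.08), and none was called against darkness in hypocotyls.

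GH3.2 (AT4G37390), a close relative of GH3.3 outside the 10, fell in hypocotyls too. Its libraries had 0.0226 and 0.0716 FPKM at 3 h and 11.5 and 10.6 FPKM in darkness (-3.52, adjusted p = 1.86e-12). The 3 h values were near the floor, as 1 read of a 1500 nt transcript was worth 0.0340 and 0.0362 FPKM in these 2 libraries. The level at 3 h therefore rests on few reads. Among enzymes that free IAA from its conjugates, 5 of the 6 tested were higher in hypocotyls than in cotyledons in darkness (23.4% of all genes tested): IAR3, ILL1, ILL2, ILL3 and ILL6. Against darkness 0 of the 6 rose in either tissue at any of the 6 times, where 0.300% to 16.9% of all genes did. In hypocotyls 1 of them was lower at 1 h (3.37% of all genes), 2 at 3 h (8.82%), 2 at 6 h (11.9%) and 2 at 12 h (14.2%). In cotyledons 1 was lower at 1 h (4.76%), 2 at 3 h (10.9%), 2 at 6 h (11%) and 1 at 12 h (8.25%). ILL6 (AT1G44350) fell by 1.99 in hypocotyls at 12 h and ILR1 (AT3G02875) fell by 2.17 in cotyledons at 3 h. IAR3 (AT1G51760) fell by 1.47 in cotyledons at 6 h and ILL3 (AT5G54140) by 1.17 in hypocotyls at 12 h.

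Of the 4 tested genes that inactivate IAA by oxidation, glucosylation or methylation, 3 rose in hypocotyls at 3 h (12.4% of all genes tested). At 12 h there 1 was higher and 2 were lower than in darkness (16.6% and 14.2% of all genes), with a median of -0.665. IAMT1 (AT5G55250), which methylates IAA, had 27.98 and 23.6 FPKM at 3 h in hypocotyls and 3.34 and 4.55 FPKM in darkness (2.44, adjusted p = 2.76e-09), and at 12 h 0.446 and 1.35 FPKM (-1.41). UGT74D1 (AT2G31750), a glucosyltransferase of auxins, rose in both tissues at 3 h, by 1.96 in hypocotyls and 2.05 in cotyledons. For the oxidation genes DAO1 (AT1G14130) and DAO2 (AT1G14120) the largest called changes with libraries apart were decreases. These were -1.31 in cotyledons at 6 h for DAO1 and -1.13 in hypocotyls at 12 h for DAO2.

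Nitrilases and the CYP79B enzymes belong to indolic routes beside the TAA1 and YUC pair. NIT1 (AT3G44310) had 3829 and 3249 FPKM at 3 h in hypocotyls and 624 and 649 FPKM in darkness (2.47, adjusted p = 6.55e-15). In cotyledons NIT2 (AT3G44300) stood at -2.95 at 12 h and NIT3 (AT3G44320) at 2.43 at 1 h. NIT1 lies beside its close relatives NIT2 and NIT3, so reads shared among them make these values uncertain. CYP79B3 (AT2G22330), which makes indole-3-acetaldoxime, stood at 1.14 at 12 h in hypocotyls and at -2.72 at 6 h in cotyledons. Of the 8 genes in that list 2 were higher and 1 lower than in darkness in hypocotyls at 6 h (14.2% and 11.9% of all genes tested), and 1 higher and 5 lower in cotyledons (16.9% and 11%), with medians of 0.484 and -1.439. Tested directly, 3 had a higher and 0 a lower change in hypocotyls than in cotyledons at 6 h (17.8% and 19.1% of all genes), with a median of 0.997 against -0.001 over all genes.

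All 7 Aux/IAA genes listed as induced by auxin fell in hypocotyls at 30 min, 3 h, 6 h and 12 h, with a median of -2.89 at 6 h against 0.012 over all genes, and 2 and 5 of them fell at 15 min and 1 h. Of all genes tested, 0.616% fell in hypocotyls at 15 min, 1.84% at 30 min, 3.37% at 1 h, 8.82% at 3 h, 11.9% at 6 h and 14.2% at 12 h. In cotyledons 0 of the 7 rose at any time, and 2 fell at 15 min (median -0.553), 2 at 30 min, 1 each at 1 h, 3 h and 6 h (median 0.21 at 6 h) and 3 at 12 h (median -0.65), where 8.25% of all genes fell at 12 h. IAA19 (AT3G15540) had 8.14 and 6.86 FPKM at 6 h in hypocotyls and 567 and 583 FPKM in darkness (-6.09). Also in hypocotyls, IAA6 (AT1G52830) stood at -6.05 at 6 h, IAA29 (AT4G32280) at -4.28 at 1 h and IAA1 (AT4G14560) at -2.94 at 3 h. These repressors are often used as a transcriptional readout of the hormone, which was itself not measured here. Whether the fall of these genes follows the hormone was not tested. Of the 6 auxin receptors AFB1 (AT4G03190) fell in hypocotyls to 8.0 and 6.23 FPKM at 12 h, against 82.9 and 81.6 FPKM in darkness (-3.37, adjusted p = 1.92e-15), AFB2 (AT3G26810) fell by 1.41 in cotyledons at 6 h and AFB5 (AT5G49980) rose by 1.03 in hypocotyls at 6 h. Of 5 activating response factors 1 was called in each tissue, ARF8 (AT5G37020). It was higher at 3 h in hypocotyls (1.21), where 12.4% of all genes tested were, and at 1 h in cotyledons (1.01), where 6.56% were.

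By Pearson correlation of mean log2(FPKM + 1) over the 14 groups, the genes most like TAA1 were NUDT20 (AT5G19460, r 0.98) and KIPK (AT3G52890, 0.97). Those most like YUC3 were DAU2 (AT5G39650, 0.99) and ABCG1 (AT2G39350, 0.97), and those most like YUC8 were SWEETIE (AT1G67140, 0.90) and AT1G65920 (0.90). For YUC2 they were GA2OX8 (AT4G21200, 0.94) and AT1G23205 (0.93), and for YUC5 AT2G24860 (0.93) and AT1G57980 (0.93). GH3.3 was followed by AT5G38710 (0.97) and AT5G28145 (0.96), and GH3.5 by AT5G15265 (0.99) and XYLT (AT5G55500, 0.985). GH3.6 was followed by BGLU46 (AT1G61820, 0.98) and AT1G53070 (0.98), and GH3.17 by BOR1 (AT2G47160, 0.96) and AT1G56660 (0.96). Such a correlation takes no account of the size of a change. Group means ran from 6.24 to 11.8 FPKM for NUDT20 and from 5.06 to 14.1 FPKM for KIPK, against 1.32 to 36.4 FPKM for TAA1. Those of SWEETIE ran from 6.48 to 14.8 FPKM, against 0.968 to 21.5 FPKM for YUC8. DAU2 ran from 0 to 5.40 FPKM, against 0 to 9.59 FPKM for YUC3.

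Replicate libraries correlated at 0.965 to 0.985, and in 14 of 14 groups each library was most like its partner. Sequencing depth ran between 0.626 and 1.75 times the median library. The 7 root markers summed to at most 1.47 FPKM in hypocotyl and 0.191 FPKM in cotyledon libraries, with PLT2 and EXPA7 at 0 in both. Some marker sums moved with time in light in hypocotyls. That of the root markers was 0.239 and 0.191 FPKM in darkness and 1.47 and 1.13 FPKM after 12 h, above all earlier hypocotyl libraries. The 7 mesophyll and stomatal markers summed there to 138 and 150 FPKM in darkness, 1380 and 1506 after 3 h and 7167 and 6437 after 12 h, and in cotyledons to between 7681 and 36924 FPKM. This list pools RBCS1A and CAB3 with genes of the stomatal lineage. In hypocotyls 4 of the 7 had a mean under 1 FPKM, so the sum there rested on the other 3. The 4 endodermis markers summed in hypocotyls to 1121 and 1199 FPKM in darkness, 1228 and 1127 after 6 h and 277 and 310 after 12 h, and in cotyledons to between 18.5 and 44.4 FPKM. The 6 wounding and jasmonate genes summed in hypocotyls to 52.6 and 53.5 FPKM in darkness, 52.02 and 49.7 after 3 h, 25.95 and 25.0 after 6 h and 24.1 and 24.2 after 12 h, and in cotyledons to between 12.7 and 25.7 FPKM. The 7 shoot apex markers summed to 0.636 to 5.84 FPKM in hypocotyls, with all libraries of 3 h and later above all earlier ones, and to 9.71 to 17.5 FPKM in cotyledons. The 4 vascular markers summed to 119 to 211 FPKM in hypocotyls and 103 to 194 FPKM in cotyledons, and the 4 seed storage genes to 0.131 to 0.768 and 0.526 to 5.17 FPKM. Chloroplast transcripts made up 0.0691 to 0.537% of FPKM in hypocotyls and 1.57 to 20.5% in cotyledons, the highest in replicate A of 1 h. The part these play in the changes of the members with light and in the differences between tissues was not tested.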

How the data were processed

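Polyadenylated RNA of 28 libraries (14 groups of tissue and time, 2 biological replicates each per the labels) was read from the deposited tables. The submitters' processing notes name CASAVA 1.8.2, TopHat2 2.0.8, Cuffdiff 2.1.1, Cuffnorm and the TAIR10 build; the sources used here do not give whether counting used strand. The FPKM values were made by the authors per locus and library. The authors' deposited Cuffdiff table gave log2 fold changes and q-values (p-values adjusted by the authors) per time and tissue against darkness; its spreadsheet errors were read as missing. It matched 8 of the 10 members, all but YUC2 and YUC5.

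From the FPKM, log2(FPKM + 1) was fitted in limma 3.58.1 (R 4.3.3, trend and robust) with one mean per group, over the 18678 genes whose mean reached 1 FPKM, in 24 contrasts. Benjamini-Hochberg adjustment ran over all genes of a contrast, and a call needed an adjusted p below 0.05 together with a size of 1 or more. The fit was tested on simulated data. Linear folds are ratios of mean FPKM. Library totals were not used here, and fragment counts were read only for YUC3, YUC5 and YUC9, whose low values fell on whole steps; counts read in this way cover sampling only. Positions and promoters are from RefSeq TAIR10.1, matched by locus (32810 of 33557). Alternatives were a pseudocount of 0.1 FPKM, no filter, quantile normalization, an equal sum over nuclear genes, a replicate block, separate fits per tissue, eBayes without trend, the authors' Cuffdiff values and each library left out.

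The members and lists were chosen with earlier results of these data known. Of each pathway list up to 4 genes are named, the largest changes against darkness among those called with libraries that did not overlap; ILL1, ILL2, TAR1, VAS1, YUC6 and other genes or contrasts named beyond that serve to account for a count or were chosen after their values were seen. For each tested member the 2 genes with the highest correlation over the 14 group means are named.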

Additional observations from a re-analysis of the deposited data

Results flagged for a closer look

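The change with light in hypocotyls minus that in cotyledons, on the log2(FPKM + 1) scale, passed both limits in limma for 25 pairs of member and time. All 25 were negative. At 30 min these were GH3.3 (-1.16) and GH3.17 (-1.14). At 1 h they were GH3.3 (-1.87), GH3.6 (-2.27) and GH3.17 (-1.62). At 3 h TAA1 (-2.62), YUC2 (-1.09), GH3.3 (-2.06), GH3.6 (-1.62) and GH3.17 (-3.57) differed. At 6 h the 8 were TAA1 (-3.17), YUC2 (-1.88), YUC5 (-1.58), YUC8 (-1.97), GH3.3 (-3.11), GH3.5 (-1.33), GH3.6 (-2.20) and GH3.17 (-3.07). At 12 h TAA1 (-3.14), YUC2 (-1.65), YUC5 (-2.07), YUC8 (-1.16), GH3.3 (-1.67), GH3.6 (-1.47) and GH3.17 (-2.52) remained past the limits.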

How the results depend on the processing

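Of the 216 tests of members, 85 were called. No direction of a called value was turned round under any alternative, and no filter, eBayes without trend and separate fits per tissue (144 tests) changed no call. A pseudocount of 0.1 FPKM ended 1 call and added 15, quantile normalization ended 2 and added 4, an equal sum over nuclear genes ended 10 and added 7, and the authors' Cuffdiff values (84 tests) ended 2 and added 5. Leaving out 1 library ended 15 of 440 calls and added 17. Member calls over all times then ran from 11 to 12 (12 with all libraries) for increases and from 9 to 13 (11) for decreases in cotyledons, from 0 to 0 (0) and from 22 to 23 (22) in hypocotyls, from 24 to 26 (25) for the difference between tissues, from 4 to 5 (4) between tissues in darkness, from 5 to 6 (5) at 12 h and from 5 to 7 (6) for the later steps.

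With a pseudocount of 0.1 FPKM the later steps held 10 member calls, and 124 genes were higher in hypocotyls at 15 min, against 71. At an equal sum over nuclear genes, the genes higher and lower in cotyledons numbered 1527 and 3503 after 3 h, 1607 and 4355 after 6 h and 1498 and 3782 after 12 h. The cause was not tested. With a replicate block, members called stayed at 12 higher and 11 lower in cotyledons, 0 higher and 22 lower in hypocotyls and 25 for the difference. The letters A and B mark no shared culture in the labels, and deviations of same-lettered libraries correlated at -0.103 to 0.163 in cotyledons and -0.112 to 0.12 in hypocotyls over 21 pairs of groups each. Depth limits YUC9, YUC3 from 3 h on, and YUC5 in cotyledons up to 1 h and in replicate B of the 12 h hypocotyls (5 fragments).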
